A study of Rattus norvegicus with 13 samples.

Results

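Heat shock proteins and chaperones are described here through 8 genes, Hsp90ab1, Hspb1, Dnajb1, Chordc1, Hspa8, Hspa5, Hspd1 and Hspe1, on 13 rat arrays. Their probe sets were taken by platform annotation alone, as every probe set whose single gene symbol is one of the 8. This gave 9 probe sets for 7 genes, among 12783 probe sets that carry exactly 1 symbol and 15923 on the array. Hsp90ab1 and Dnajb1 had 2 probe sets each, and the other measured genes had 1. Hspa8, the constitutive cytosolic HSP70, has 1 probe set that it shares with another gene, so it was not measured by this rule.

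All samples were RNA from kidney glomeruli, the capillary tufts that filter blood, from untreated Lewis-Hsd rats aged 18 weeks on a regular diet. Kidneys came in pairs, and the comparison asks how RNA from microdissected and amplified glomeruli compares with RNA from glomeruli isolated in bulk. One kidney was perfused with iron oxide by way of the aorta, its glomeruli were collected by sieve and magnet, and their RNA was not amplified (titled iron, here the sieved group, n = 4). The artery of the opposite kidney was clamped, and its glomeruli were cut out of sections by laser capture microdissection, with 2 rounds of amplification of the RNA (LCM800, n = 5, and LCM20, n = 4). The protocol text names about 800 cross-sections of 10 µm for both LCM groups, so the meaning of the 20 in the titles is unknown here, and 6 µg of total RNA is named for labelling in all groups. Isolation, perfusion, amplification and the choice of kidney changed together between sieved and LCM samples and cannot be told apart. The titles call the samples biological replicates, but the labels do not say which samples came from 1 rat. The extraction text for the sieved samples also mentions anti-Thy1.1 rats, and the sample description speaks of embryos, neither of which matches the other labels.

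Chaperones bind proteins that are unfolded or newly made and keep them from aggregating, and ATP-driven families such as HSP90, HSP70 and the chaperonins help them fold. In the cytosol and nucleus, heat shock factor 1 raises many of these genes after heat, oxidants or ischaemia by binding heat shock elements, which are repeats of GAA units in alternating orientation. Unfolded protein in the endoplasmic reticulum acts through another element, the endoplasmic reticulum stress element, and the small heat shock protein HSP27, encoded by Hspb1, binds actin filaments and is present in podocytes, the epithelial cells that wrap the glomerular capillaries.

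Promoter windows from RefSeq on the rat build GRCr8 were searched for these elements on both strands, since these elements are how such genes are known to be switched on. The stretches below run 5′ to 3′ on the strand of the gene and end at the base before its start site, except that of Chordc1, whose element lies just past the start site. Capitals mark a heat shock element of 3 or more units in Hspe1 and Chordc1, and separate matches of only 2 units in Hspb1. In Hspa5 they mark the endoplasmic reticulum stress element. The windows of Hspe1 (chr9:64084077-64084326, plus strand), Hspa5 (chr3:38452766-38453015, plus strand) and Hspb1 (chr12:26432302-26432551, minus strand) hold 250 bases, and that of Chordc1 (chr8:23650828-23650857, plus strand) holds 30.
Hspe1: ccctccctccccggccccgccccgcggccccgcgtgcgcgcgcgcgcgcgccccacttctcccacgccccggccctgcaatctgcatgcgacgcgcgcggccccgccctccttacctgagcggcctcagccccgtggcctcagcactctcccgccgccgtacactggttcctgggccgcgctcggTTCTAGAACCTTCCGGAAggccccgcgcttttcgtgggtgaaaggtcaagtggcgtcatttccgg
Hspa5: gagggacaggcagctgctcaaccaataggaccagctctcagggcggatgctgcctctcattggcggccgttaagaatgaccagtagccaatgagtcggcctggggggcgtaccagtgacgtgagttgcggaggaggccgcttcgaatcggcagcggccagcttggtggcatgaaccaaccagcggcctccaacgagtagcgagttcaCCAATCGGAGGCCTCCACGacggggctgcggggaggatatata
Hspb1: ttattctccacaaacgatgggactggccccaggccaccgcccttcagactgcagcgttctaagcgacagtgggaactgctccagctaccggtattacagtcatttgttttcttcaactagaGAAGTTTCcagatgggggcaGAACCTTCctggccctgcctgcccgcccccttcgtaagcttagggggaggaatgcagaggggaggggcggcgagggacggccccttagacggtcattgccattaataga
Chordc1: ccgGAACGTTCGGGAAGATTCCTGAAgcag

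The 3-unit heat shock element GAANNTTCNNGAA, or its reverse complement, lay in the 300-base windows of 3 of the 7 measured members, Chordc1, Hspd1 and Hspe1, and in 0.798% of 33469 promoters of the same length. In Hspe1 it began 65 bases before the start site. Hspd1 and Hspe1 are neighbours on opposite strands, and their windows share 211 bases (chr9:64084077-64084287), so the capitals in Hspe1 are also the element of Hspd1. The 2-unit form GAANNTTC, which the 3-unit form contains, lay in 5 of 7 windows, now with Hspb1 and Dnajb1, against 8.59% of all promoters. The endoplasmic reticulum stress element CCAATNNNNNNNNNCCACG lay in that of Hspa5 alone, 43 bases before the start site, and in 0.0657% of all promoters. Hsp90ab1 held none of these letter patterns in its window. A match of letters does not show that a factor binds there.

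Values are deposited array signals made with MAS5, and fold changes are ratios of mean signals. Changes are differences of group means of log2(signal + 65.3) with the SE of the limma fit, so the change of a dim probe set is smaller than the ratio of its signals. Where arrays of a group spread widely, as for Hspb1, the ratio of mean signals also departs from the change, which averages log2 values. Adjusted p-values are two-sided, from limma with Benjamini-Hochberg adjustment over 11106 probe sets, and 0.05 was the threshold. They measure the spread between these arrays, whose number limits the precision. Intervals of changes below are approximate. Their multiplier of the SE came from the normal distribution and not from the t of limma, so they are too narrow. Calls rest on the adjusted p-values and not on these intervals. Both LCM groups were compared with the same sieved arrays, so those comparisons share their error. In RNA from whole tissue pieces, fewer cells of a type and less RNA per cell cannot be told apart.

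Array medians ran from 236 to 321 signal units. The β-actin control, which sets a probe set near the 3′ end of its RNA against another near the 5′ end, differed by 0.53 to 0.57 log2 units in the sieved arrays, by 1.71 to 4.01 in LCM800 and by 1.33 to 2.29 in LCM20. The LCM800 value was above the sieved one by 2.22 (exact two-sided permutation test, p = 0.0159, n = 5 and 4, adjusted p = 0.0476 over 9 such tests), and the LCM20 value by 1.25 (exact p = 0.0286, n = 4 and 4, adjusted p = 0.0643). The GAPDH and hexokinase controls differed by 0.70 and −0.50 between LCM800 and sieved arrays (exact permutation adjusted p = 0.0476 for both). Within LCM800 the β-actin difference was 2.80 to 4.01 on arrays 1 to 3 and 1.71 to 1.78 on arrays 4 and 5, a split that no label gives. Fits below with arrays 1 to 3 or 4 and 5 alone follow this split of the values, so their p-values are descriptions. The summed signal of 8 proximal tubule markers was 40632 to 76089 in sieved, 22626 to 45554 in LCM800 and 19854 to 37070 in LCM20 arrays, and that of 5 podocyte markers 15198 to 36231, 28210 to 39378 and 25018 to 39888. The sum of 5 glomerular endothelial markers was 2418 to 7948 in sieved, 8341 to 12325 in LCM800 and 11505 to 17268 in LCM20 arrays. That of 6 markers of the loop, distal tubule and collecting duct was 16717 to 35973, 12230 to 19496 and 4168 to 11022, and that of 5 leukocyte markers 5208 to 9416, 2427 to 5080 and 1666 to 4824. The endothelial and leukocyte ranges of both LCM groups and both tubule ranges of LCM20 did not overlap the sieved range, while the podocyte ranges did. Markers within a sum did not all move alike. Cd74 held most of the mean leukocyte sum (7491 in sieved, 2276 in LCM800, 1598 in LCM20), while Ptprc, Cd3d and Laptm5 had higher means in both LCM groups. By means in both LCM groups, Synpo and Nphs1 were higher and Podxl and Ptpro lower, and endothelial Ehd3 was lower. Pck1 was higher in both, and Aqp2 in LCM800. Sieved array 3 had the lowest proximal tubule and the highest podocyte sum of its group. The part of these values in the results below was not tested.

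Most of the 9 probe sets differed between LCM800 and sieved glomeruli, in both directions. Chordc1, Hspb1 and 1 probe set of Dnajb1 were higher in LCM800, and both probe sets of Hsp90ab1, Hspe1 and the other probe set of Dnajb1 were lower, while Hspa5 and Hspd1 did not pass the test. The 7 of 9 that passed stood against 51.9% of all probe sets tested, the 3 that were higher against 31.8% and the 4 that were lower against 20.1%. Sample ranges did not overlap for 4 of 9, against 42.8% of all. In LCM20 against sieved glomeruli 4 of 9 passed, against 45.3%: Chordc1 was higher (26.2% of all probe sets were) and both Hsp90ab1 probe sets and 1 of Dnajb1 were lower (19.2% of all). Ranges did not overlap for 4 of 9, against 43.8%. The median change of the 9 was −0.50 in LCM800 and −0.06 in LCM20, beside 0.22 and 0.17 over all probe sets tested.

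All 9 probe sets were above the limit that left out the dimmest 30% by mean log2 over all arrays, but for 3 of them the sieved level carried this. Hsp90ab1 1375336_at and Dnajb1 1383302_at had means below that limit in both LCM groups and Hsp90ab1 1375335_at in LCM20, so in those comparisons they had to be lower. Their falls are descriptions, and the counts above include them.

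**Figure D1:**
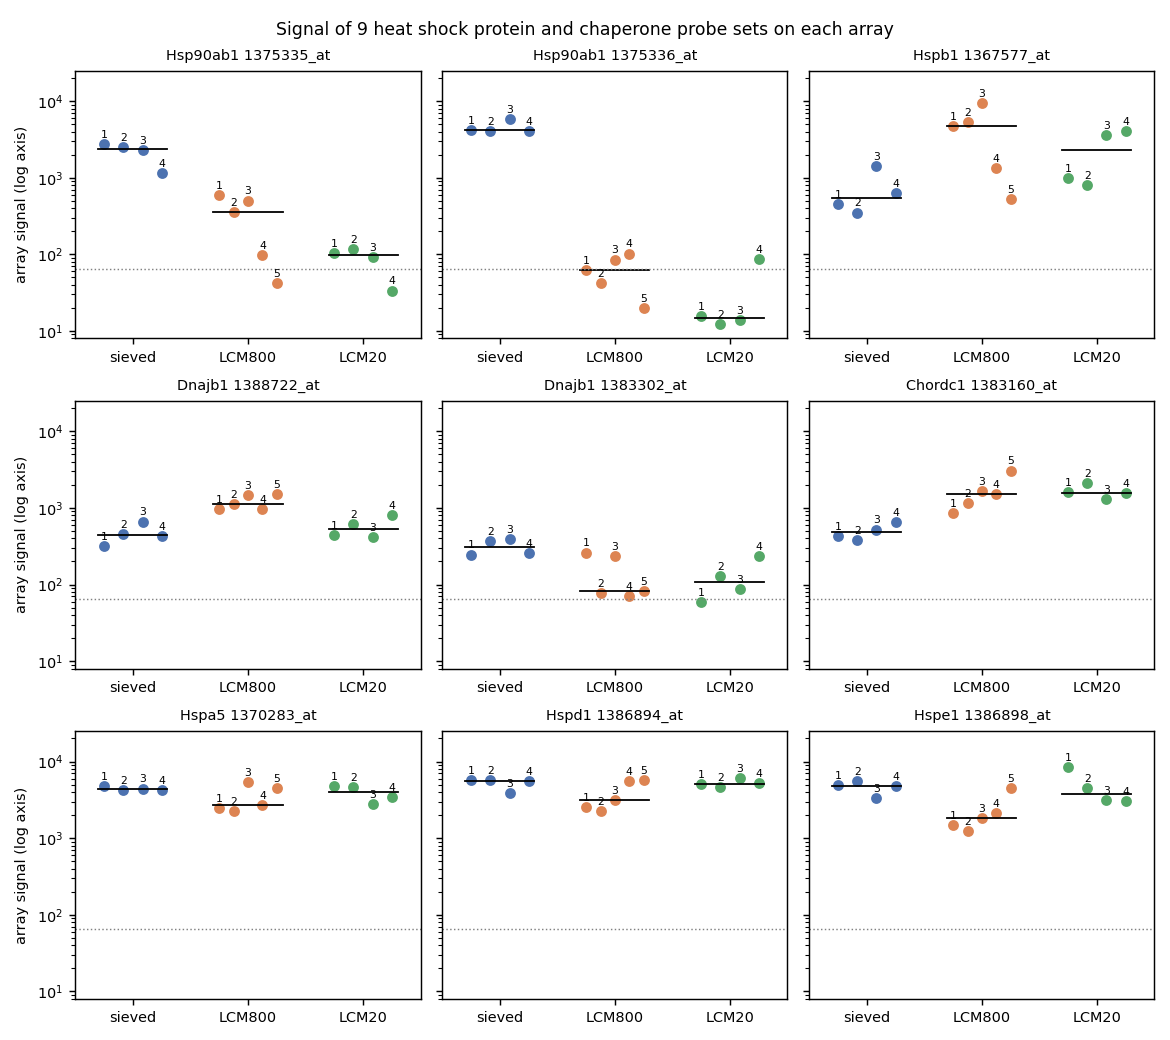
Array signal (log axis) of each of the 9 probe sets on the 13 arrays, in 3 groups, with points numbered by replicate, bars at group medians and a dotted line at the pseudocount of 65.3. Both Hsp90ab1 probe sets lie higher on every sieved array than on any LCM array, and Chordc1 lies lower.

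Hsp90ab1 encodes HSP90β, the constitutive cytosolic HSP90, which matures kinases and steroid receptors together with cochaperones. Its probe set 1375336_at read 4207, 4101, 5878 and 4038 in sieved arrays 1 to 4. In LCM800 arrays 1 to 5 it read 62.3, 41.8, 85.6, 102 and 20.0, and in LCM20 arrays 1 to 4 15.5, 12.3, 13.9 and 87.6. Every LCM array lay far below every sieved array, and several LCM values were under the pseudocount. No detection calls were used here, so whether these low LCM signals stand above background is not known.

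The mean signal of Hsp90ab1 1375336_at was 4556 ± 884 (SD, n = 4) in sieved, 62.4 ± 33.0 (SD, n = 5) in LCM800 and 32.4 ± 36.9 (SD, n = 4) in LCM20 arrays. On the log2(signal + 65.3) scale it fell by 5.20 ± 0.25 in LCM800 (limma adjusted p = 2.96e-09) and fell by 5.61 ± 0.26 in LCM20 (adjusted p = 4.12e-09). The direction held with other pseudocounts, but the size did not: it was −3.89 and −4.03 with 4 times the pseudocount and −6.38 and −7.68 with none. No fold is given for this probe set, since the LCM means lie under the pseudocount. As the probe set was kept through its sieved level, these falls are no test of the gene.

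Hsp90ab1 1375335_at read 2749, 2510.0, 2304 and 1140.5 in the sieved arrays. It read 601, 354, 504, 98.7 and 42.3 in LCM800 and 104, 117, 91.8 and 33.7 in LCM20. The direction matched that of the other Hsp90ab1 probe set, with no overlap between sieved and LCM arrays, but the fall was smaller. It fell by 2.79 ± 0.46 in LCM800 (sieved 6.80-fold higher, limma adjusted p = 0.000143) and fell by 3.85 ± 0.48 in LCM20 (adjusted p = 1.90e-05), where array 4 was under the pseudocount. The LCM20 fall is a description, since the LCM20 mean lay under the filter limit. LCM800 arrays 1 to 3 read 354 to 601 and arrays 4 and 5 no more than 98.7, the same split as on the β-actin control. Where the probes lie on the transcript was not analysed here.

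Chordc1 encodes CHP-1, a zinc-binding cochaperone of HSP90, and its promoter element is the longest run of GAA units among those printed. Its signal was 433, 377, 522 and 656 in sieved arrays. In LCM800 it was 868, 1166, 1675, 1499 and 3078, and in LCM20 1595, 2142, 1305 and 1548. The highest sieved value lay below the lowest LCM value. Chordc1 rose by 1.51 ± 0.30 in LCM800 (3.33-fold, limma adjusted p = 0.000604) and by 1.61 ± 0.31 in LCM20 (3.31-fold, adjusted p = 0.000693). The LCM means were close, 1657 ± 853 (SD, n = 5) and 1648 ± 353 (SD, n = 4), with the wider spread in LCM800, where array 5 stood highest. Chordc1 was the 1 member that passed as higher in both LCM groups.

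Dnajb1 encodes HSP40, the J-domain protein that hands clients to HSP70 and starts its ATP cycle. The changes of its probe sets differed in sign in LCM800. Probe set 1388722_at read 318, 457, 665 and 435 in sieved arrays, 972, 1119, 1489, 979.7 and 1508 in LCM800 and 441, 623, 422 and 799.8 in LCM20. Every LCM800 array was above every sieved and every LCM20 array, while sieved and LCM20 overlapped. It rose by 1.27 ± 0.24 in LCM800 (2.59-fold, limma adjusted p = 0.000468). In LCM20 it differed by 0.25 (approximate 95% interval −0.25 to 0.75, limma adjusted p = 0.436).

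Dnajb1 1383302_at read 246, 369.6, 396 and 257 in sieved arrays. It read 262, 77.2, 236, 70.4 and 81.8 in LCM800 and 58.7, 128, 86.9 and 238 in LCM20. All LCM20 arrays were below all sieved arrays, and in LCM800 array 1 reached the sieved range and array 3 lay just under it. It fell by 0.95 ± 0.32 in LCM800 (limma adjusted p = 0.0207) and by 1.05 ± 0.34 in LCM20 (adjusted p = 0.0194). As this dim probe set was kept through its sieved level, these falls are no test of the gene. Both calls were near the threshold: without sieved array 2 or 3 the LCM800 change was −0.88 and −0.85 (adjusted p = 0.0591 and 0.0598, from 0.00384 to 0.119 over its alternatives). The LCM20 change was −0.86 to −0.98 without sieved array 2 or 3 or LCM20 array 1 or 3 (adjusted p = 0.0515 to 0.0630, from 0.00701 to 0.0630 over its alternatives).

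Hspb1 encodes HSP27, a small heat shock protein that holds unfolded clients without ATP. Its signal varied more within the sieved and LCM800 groups than that of any other of the 9 probe sets (coefficients of variation 68.5% and 83.1%). Sieved arrays read 454, 351, 1439.6 and 639, with the highest value on array 3. LCM800 arrays read 4679.6, 5371, 9384, 1334 and 527, so that arrays 1 to 3 were high and arrays 4 and 5 lay within the sieved range.

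LCM20 arrays read 1004, 801, 3638 and 4026 for Hspb1, with arrays 1 and 2 inside the sieved range and arrays 3 and 4 above it. Hspb1 rose by 2.06 ± 0.70 in LCM800 (5.91-fold, limma adjusted p = 0.0221) with overlapping ranges. In LCM20 the change was 1.48 ± 0.74 and did not pass (3.28-fold, adjusted p = 0.112), but it passed with array weights, with the replicate number as a block and with only these groups in the fit (adjusted p = 0.0078, 0.0296 and 0.0341, within 0.0078 to 0.264 over its alternatives). With LCM800 arrays 4 and 5 alone the change was 0.40 (limma adjusted p = 0.633) and with arrays 1 to 3 alone 3.17 (adjusted p = 0.000212), a split taken from the values. Leaving out LCM800 array 2 or 3 or sieved array 1 or 2 raised the adjusted p to 0.0513, 0.0591, 0.0569 and 0.0672, within 1.12e-05 to 0.633 over its alternatives.

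Hspb1 also followed the β-actin control across the 9 LCM arrays. Its log2 value rose with the 3′ minus 5′ difference (Pearson r = 0.87, exact permutation p = 0.00139, adjusted over 9 probe sets 0.0125; Spearman rho = 0.93, exact p = 0.00075, adjusted 0.00675). Without the arrays farthest from the median, LCM800 arrays 2 and 3, r was 0.84, and with the group means removed it was 0.92. Of all probe sets tested, 3.43% had an r at least as large in size. This relation was noticed in the values before it was tested, and no correlation was computed within the groups of 5 and 4 arrays. LCM arrays 1 and 2 of LCM20 and 4 and 5 of LCM800, which had the 4 lowest β-actin differences, were also the 4 lowest for Hspb1.

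Hspa5 encodes BiP, the HSP70 of the endoplasmic reticulum, which binds entering polypeptides and senses unfolded protein. It was the steadiest member in the sieved group, with 4833, 4289, 4437 and 4257. LCM800 arrays read 2472, 2251, 5400.3, 2723 and 4493 and LCM20 arrays 4781, 4673, 2757 and 3411, and both LCM groups ran from below the sieved range into or past it. The change was −0.44 in LCM800 (approximate 95% interval −0.98 to 0.10, limma adjusted p = 0.189). In LCM20 it was −0.22 (−0.79 to 0.35, limma adjusted p = 0.554), and neither change passed.

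Hspd1 and Hspe1 encode HSP60 and HSP10, the ring and the lid of the mitochondrial chaperonin, and are read from the shared promoter region shown above. Hspd1 read 5687, 5660.0, 3838 and 5505 in sieved arrays, 2568, 2289, 3114, 5639 and 5689 in LCM800 and 5097, 4602, 6079 and 5183 in LCM20. LCM800 arrays 1 to 3 were below every sieved array, and arrays 4 and 5 were at the sieved level. The change of Hspd1 was −0.50 in LCM800 (approximate 95% interval −1.06 to 0.05, limma adjusted p = 0.146). In LCM20 it was 0.03 (−0.55 to 0.61, limma adjusted p = 0.945). With LCM800 arrays 1 to 3 alone Hspd1 fell by 0.94 (adjusted p = 0.00231), and with arrays 4 and 5 alone the change turned to 0.15 (adjusted p = 0.638), within 0.00066 to 0.638 over its alternatives.

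Hspe1 read 4866, 5601, 3327 and 4737 in sieved arrays. LCM800 read 1488, 1230.0, 1842, 2132 and 4517, with array 5 alone in the sieved range. LCM20 read 8544, 4464, 3139 and 3059, with array 1 above all others. Hspe1 fell by 1.15 ± 0.36 in LCM800 (sieved 2.07-fold higher, limma adjusted p = 0.0143). In LCM20 it differed by −0.06 (approximate 95% interval −0.80 to 0.69, limma adjusted p = 0.917). With LCM800 arrays 4 and 5 alone the change was −0.54 (adjusted p = 0.289, within 4.23e-05 to 0.289 over its alternatives).

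Across the 9 LCM arrays both mitochondrial members ran opposite to the β-actin difference. For Hspe1 r was −0.80 (exact permutation p = 0.0089, adjusted 0.0401) and rho −0.88 (exact p = 0.00308, adjusted 0.0138), with r = −0.84 without the farthest arrays and −0.70 with group means removed. For Hspd1 r was −0.79 (exact permutation p = 0.0143, adjusted 0.0411), but rho was −0.50 (exact p = 0.178, adjusted 0.281), and r was −0.64 without those arrays. Hsp90ab1 1375335_at had r = 0.77 (exact permutation p = 0.0183, adjusted 0.0411) with rho = 0.43 (exact p = 0.25, adjusted 0.281), and r fell to 0.56 without them. Of all probe sets, 10.9%, 11.7% and 15.0% had an r as large in size as Hspe1, Hspd1 and this Hsp90ab1 probe set. The other 5 probe sets did not pass for r or rho.

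**Figure D2:**
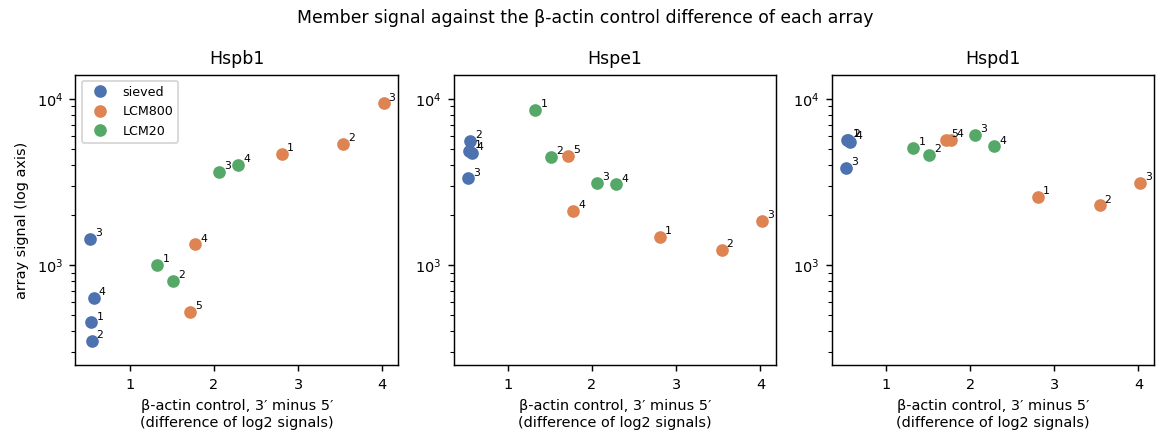
Array signal (log axis) of Hspb1, Hspe1 and Hspd1 against the β-actin 3′ minus 5′ difference of log2 signals, 1 point per array, numbered by replicate and coloured by group. Over the 9 LCM arrays Hspb1 runs upward (r = 0.87) and Hspe1 downward (r = −0.80), and the sieved arrays lie at 0.53 to 0.57.

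Between the LCM groups no member passed the test in limma (0 of 9, against 0.153% of all probe sets tested), and 3 of 9 had an unadjusted p under 0.05, against 17.6%. These 3 were Dnajb1 1388722_at, lower in LCM20 by 1.02 ± 0.24 (limma adjusted p = 0.0748), Hspe1, higher by 1.10 ± 0.36 (adjusted p = 0.158), and Hsp90ab1 1375335_at, at −1.06 ± 0.46 (adjusted p = 0.253). Dnajb1 1388722_at was the 1 probe set of 9 with ranges that did not overlap, against 3.84% of all. For Chordc1 the difference was 0.10 (approximate 95% interval −0.49 to 0.68) and for Hspa5 0.22 (−0.32 to 0.76). The median of the 9 was −0.09, beside −0.06 over all probe sets.

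This count depends on which LCM800 arrays were used. The split of these arrays was taken from their values and not from a label, so the p-values that follow are descriptions. Against LCM800 arrays 1 to 3 alone, 5 of 9 passed, against 23.2% of all probe sets: Hsp90ab1 1375335_at fell by 1.87 in LCM20, Hspb1 fell by 1.69, Dnajb1 1388722_at was also lower, and Hspd1 and Hspe1 rose by 0.97 and 1.51 (limma adjusted p from 0.000899 to 0.0351). Against arrays 4 and 5 alone 0 of 9 passed.

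**Figure D3:**
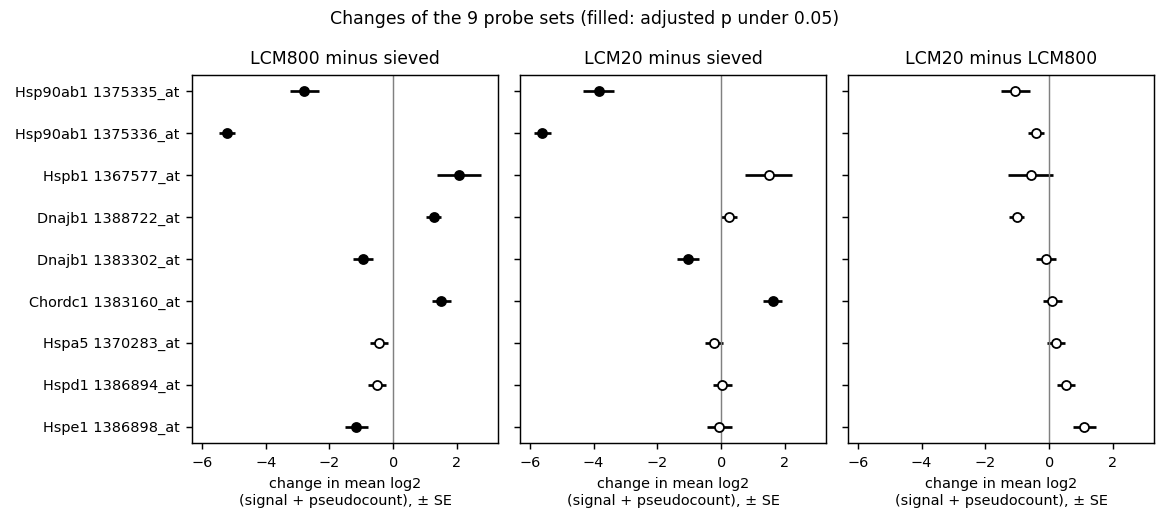
Change in mean log2(signal + pseudocount) of the 9 probe sets with its SE, in the 3 comparisons, filled where the limma adjusted p is under 0.05. In LCM800 minus sieved 7 of 9 are filled, in LCM20 minus sieved 4, and in LCM20 minus LCM800 0, and in both comparisons with sieved the Hsp90ab1 probe sets lie farthest from 0.

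A wider list of 80 genes, 1 probe set each, was set beside the members and is called other chaperones here. Besides chaperones it holds cochaperones, heat shock factors and some mitochondrial protease genes. Of these, 73 were measured and 64 passed the limit on low values. In LCM800 against sieved glomeruli 19 were higher, 19 lower and 26 did not pass, where 32.3% of all 8081 genes were higher, 19.8% lower and 52.1% either. In LCM20 13 were higher, 12 lower and 39 did not pass, where 27% of all genes were higher, 18.5% lower and 45.5% either. Medians were −0.09 and 0.03, beside 0.22 and 0.17 over all probe sets. Between the LCM groups limma passed 0 of 64.

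Chaperones of the endoplasmic reticulum, the class of Hspa5, held the largest falls. In LCM800 7 of 12 fell and 2 rose, with a median of −1.23, and in LCM20 6 fell and 2 rose, with a median of −0.74. Those called, 75% and 66.7%, stood beside 52.1% and 45.5% of all genes. Hyou1 counts as not passed by the probe set that represents it, while its other probe set gave −2.05 and −2.57 (limma adjusted p = 6.80e-05 and 2.03e-05). The LCM means of that other probe set are not given here. It may have been kept through its sieved level, so these values are descriptions. Pdia3 counts as fallen in both, while its other probe set rose by 0.96 in LCM800 and 0.64 in LCM20 (limma adjusted p = 0.00381 and 0.0486). Hsp90b1, the HSP90 of this compartment (GRP94), fell by 3.26 ± 0.31 (limma adjusted p = 1.23e-06) in LCM800, where the mean signal was 473 against 4640 in sieved arrays, and fell by 3.65 ± 0.33 in LCM20, to 313. Sdf2l1, which works beside BiP, rose by 1.47 and 1.21. Serpinh1, the collagen chaperone HSP47, changed by −2.67 and −2.75. Manf, counted as fallen in both, had LCM means of 106 and 108, under the limit on low values. It was kept through its sieved level of 1070, so its falls are descriptions. For Canx, which encodes calnexin, the probe set of highest signal rose by 1.10 and 1.18 and the others fell, with −3.89 and −2.83 in LCM800 and −3.80 and −1.69 in LCM20. The dimmest Canx probe set, with −3.89 and −3.80, may also have been kept through its sieved level, so its falls are descriptions.

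The mitochondrial class, without Hspd1 and Hspe1, also holds Lonp1, Clpp and Clpx, genes of proteases. Of its 6 genes tested 4 fell in LCM800 and none rose (median −0.83), and in LCM20 2 fell and 1 rose (median −0.43). Those called, 66.7% and 50%, stood beside 52.1% and 45.5% of all genes. Lonp1 at −1.56 and Clpx at −1.07 were among the 4 that fell in LCM800. Hspa9, the mitochondrial HSP70 mortalin, changed by −2.52 ± 0.29 and −2.78 ± 0.31 (limma adjusted p = 7.01e-06 and 6.76e-06). A dimmer probe set of Hspa9 gave 0.60 and 0.55 and passed in neither comparison. Grpel1, its nucleotide exchange factor, rose by 0.61 in LCM20.

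Cochaperones of HSP90 and HSP70, the class nearest to Chordc1, changed in both directions, about as often as all genes. Of 16 tested, 5 rose and 3 fell in LCM800, and 5 rose and 2 fell in LCM20. Those called, 50% and 43.8%, stood beside 52.1% and 45.5% of all genes. St13 counts as risen in both, by 1.17 in LCM800 and 1.55 in LCM20. Its other probe set gave −1.51 in LCM800 (limma adjusted p = 0.00482) and −0.75 in LCM20, where it did not pass. Ptges3, the cochaperone p23, fell by 1.74 ± 0.43 in LCM800 (limma adjusted p = 0.00339), and Stip1, the HOP adaptor between HSP70 and HSP90, fell by 1.32 ± 0.21 in LCM20 (adjusted p = 0.00015). Fkbp5, an immunophilin of the steroid receptor complex, rose by 1.48 ± 0.37 in LCM800, and Bag5, an exchange factor of HSP70, rose by 1.73 ± 0.27 in LCM20.

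Among J-domain genes, the class of Dnajb1, 4 of 12 rose and 2 fell in LCM800, with Dnajc2 at 1.27 and Dnaja2 at −1.35. In LCM20 2 rose and 1 fell, with Dnajc5 at 1.07 and Dnajc7 at −1.29. A dimmer probe set of Dnajc5 gave 0.07 in LCM800 and −0.34 in LCM20 and passed in neither. The J-domain genes called, 50% and 25%, stood beside 52.1% and 45.5% of all genes. Those shares of all genes also stand beside the other class counts of this paragraph. The small heat shock genes moved in LCM800, where Hspb6, Hspb7 and Cryaa rose, Cryaa by 1.16, and Cryab fell by 0.81, which made 4 of 4 tested. The mean signal of Cryaa in sieved arrays, 111, lay under the limit on low values. Cryaa was kept through its LCM level, so its rise is a description, and the count includes it. In LCM20 Cryab alone passed, with a fall of 1.10. Of the other cytosolic HSP70 and HSP110 genes 2 of 3 rose in both comparisons, Hspa1a by 0.73 and 0.63 and Hsph1 by 0.55 and 0.74, and Hspa4 gave −0.65 and −0.18 and passed in neither. For the cytosolic chaperonin TRiC, 2 subunits of 8 rose and 2 fell in LCM800 (Cct6a at 0.56 and Cct2 at −1.11), and 1 rose in LCM20 (Cct7 at 0.72). Of 3 heat shock factors Hsf4 rose by 0.87 in LCM800, and Hsf1 gave −0.16 and −0.50 and passed in neither.

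Probe sets of 1 gene often differed in sign. Of 8 other chaperone genes with several probe sets tested, changes had opposite signs within 4 in LCM800 and within 6 in LCM20. Values of a gene with 1 probe set have no such check.

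**Figure D4:**
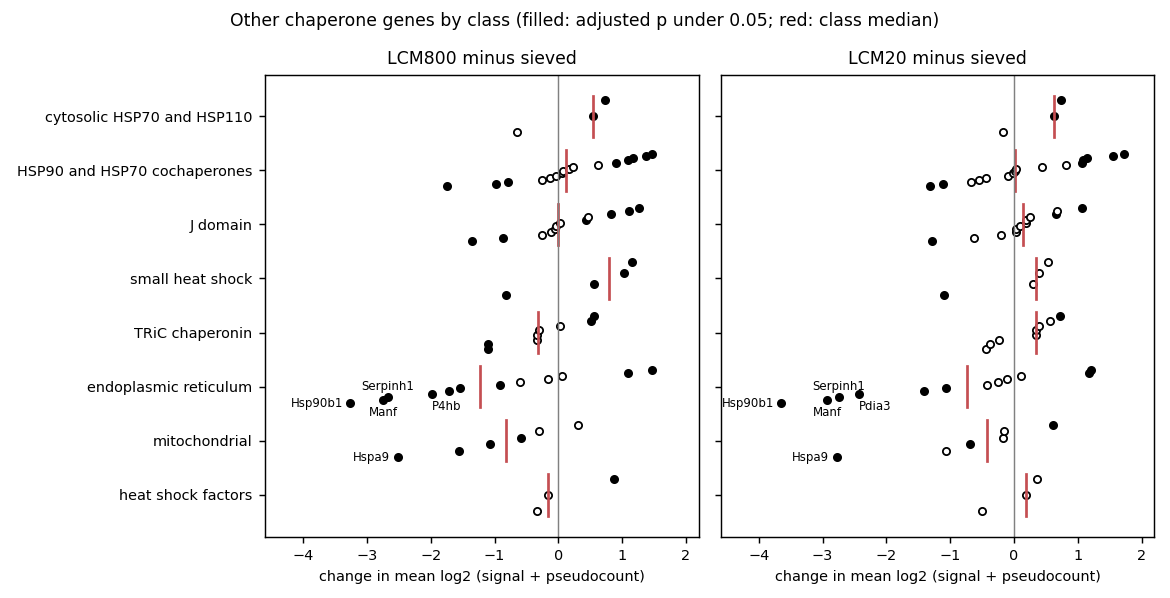
Change in mean log2(signal + pseudocount) of the 64 other chaperone genes by class, filled where the limma adjusted p is under 0.05, with a red line at the class median. Endoplasmic reticulum genes reach −3.26 (Hsp90b1) in LCM800 and −3.65 in LCM20, and their medians are −1.23 and −0.74.

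By the root mean square difference of centred log2 values over the 13 arrays, the genes with the profiles most like those of the members were as follows. Hsp90ab1 1375335_at was nearest to Serpinf2 (0.53) and Mgll (0.59), and Hspb1 to Nherf2 (0.56) and Rps28 (0.60). Chordc1 was nearest to Mrps6 (0.19) and Rab5if (0.22), Dnajb1 1388722_at to Mfn2 (0.22) and Sos1 (0.26), and Hspa5 to App (0.21) and Kpnb1 (0.25). Hspd1 was nearest to Mmd and Relch (both 0.19) and Hspe1 to C1qtnf3 (0.35) and Apmap (0.36), so the members of the shared promoter were not each other's nearest genes. The own spread of these 7 probe sets on this scale ran from 0.40 for Hspa5 to 1.72 for Hsp90ab1 1375335_at.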

How the data were processed

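Single-colour signals of Affymetrix Rat 230A arrays were analysed for 13 samples. Per the submitters' processing notes, the authors used MAS5, and the deposited values are linear intensity units. Array means after leaving out 2% at each end were all 500.1, so no further scaling was applied. Detection calls, genome build and probe positions are not given in the sources used here.

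Signals were taken as log2(signal + 65.3), the 20th percentile of all signals, and 57 control probe sets and the lowest 30% by mean log2 were left out. Groups, taken from sample titles, were compared with limma 3.58.1 (R 4.3.3; lmFit, eBayes with intensity trend, 3 groups in 1 fit, no covariate). A self-test on simulated data for LCM800 minus sieved, with 11106 probe sets, recovered 190 of 200 changes of 2 log2 units with 4 false calls. It used independent noise of equal spread in all groups and changed few probe sets, while 51.9% were called in the data. It therefore checks the code and does not give the rate of false calls here. Control differences and correlations used exact permutation tests (scipy 1.17.1).

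Genes were named from the platform table. Other chaperones are represented by the probe set of highest mean log2, and of each class the largest rise and fall past the test are named, as are the 2 nearest profiles of each member. Serpinh1, Canx, Hyou1, Pdia3, Manf, St13, Hspa4, Hspb6, Hspb7, Hsf1, Lonp1, Clpp, Clpx and the single cell type markers were named after their values were seen. Members and lists were chosen with earlier results of these data known. Alternatives covered normalization, pseudocount, filter, variance model, array weights, the replicate number, the groups in the fit and arrays left out.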

Additional observations from a re-analysis of the deposited data

Results flagged for a closer look

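For 3 of 27 combinations of probe set and group, 1 array stood apart from the rest of its group by Dixon's criterion, which chance meets in about 1 in 20 groups. Sieved array 3 read 5878 for Hsp90ab1 1375336_at, against 4038 to 4207 on the other sieved arrays, and 3838 for Hspd1, against 5505 to 5687. The same array had the highest podocyte and lowest tubule marker sum of its group. LCM20 array 4 read 87.6 for Hsp90ab1 1375336_at, against 12.3 to 15.5 on the other LCM20 arrays. Without that LCM20 array the change of this probe set in LCM20 was −5.85, and without sieved array 3 it was −5.48, and both passed. The probe set was kept through its sieved level, so these falls remain descriptions.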

How the results depend on the processing

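Of 537 values of single probe sets under the alternatives, 489 kept their direction and side of the threshold, 14 lost a call, 14 gained one and 20 changed sign, all 20 with values that did not pass. Both Hsp90ab1 probe sets and Chordc1 against sieved, and Dnajb1 1388722_at in LCM800, kept their calls under every alternative run. The Hsp90ab1 falls of probe sets kept through their sieved level remain descriptions, so their steady calls are no test of the gene. With 1 array left out at a time, 5 to 7 member probe sets passed in LCM800 minus sieved and 3 to 4 in LCM20 minus sieved, and 29 to 35 and 18 to 24 other chaperones. Between the LCM groups the count of members was 5 with LCM800 arrays 1 to 3, 2 with array weights and 0 to 1 with an array left out, and that of other chaperones 21, 9 and 0 to 5 (members 1 and 1, others 5 and 2, without LCM800 array 4 or 5).

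Whether the replicate numbers pair the arrays is not known. Of 12 pairs with the same number, 3 had a correlation of deviations over 0.1, and all lay between −0.24 and 0.23. With so few arrays per group, low correlations cannot show that arrays came from different rats. With the replicate block, Dnajb1 1383302_at in LCM800 was −0.85 (limma adjusted p = 0.0705) and Hspb1 in LCM20 1.48 (adjusted p = 0.0296), and 6, 5 and 0 members passed in the 3 comparisons. Hspb1 in LCM20 also passed with array weights (1.80, adjusted p = 0.0078) and with only the compared groups in the fit (adjusted p = 0.0341).

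Values that changed sign were, with LCM800 arrays 4 and 5 alone, Hspd1 against sieved (0.15) and, in LCM20 minus LCM800, Hsp90ab1 1375335_at (0.16), Hspb1 (1.09), Dnajb1 1383302_at (0.37), Chordc1 (−0.39) and Hspd1 (−0.12). In LCM20 minus sieved Hspd1 was −0.10 with array weights and −0.11 to 0.089 with an array left out, and Hspe1 0.030 with quantile normalization and −0.37 to 0.11. In LCM20 minus LCM800 Dnajb1 1383302_at was 0.0047 with equal medians, 0.028 with quantile normalization and −0.34 to 0.093 with an array left out, and Chordc1 −0.095 to 0.34. The control differences in LCM800 missed the threshold with quantile normalization and without a pseudocount: β-actin 2.34 and 2.72, GAPDH 0.74 and 0.85, hexokinase −0.53 and −0.55. For β-actin the exact permutation p stayed at 0.0159, the smallest that n = 5 and 4 allow, and its adjusted p rose to 0.0714 because the p of GAPDH (quantile) or hexokinase (no pseudocount) rose. For the values that changed sign the cause was not tested. Equal array medians moved the median of all probe sets by −0.11 in LCM800 minus sieved and by 0.10 in LCM20 minus LCM800. Signals near or under the pseudocount, as for Hsp90ab1 on LCM arrays, give folds that depend on it.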
